A study of Mus musculus with 6 samples.

Results

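The colony stimulating factors and their receptors were followed in cultured mouse lung fibroblasts treated with purmorphamine. The set comprised 9 genes chosen by name: 4 ligand genes (Csf1, Il34, Csf2 and Csf3) and 5 receptor chain genes (Csf1r, Csf2ra, Csf2rb, Csf2rb2 and Csf3r). They were found among 22180 named genes, on 10 probe sets. Csf2 had a pair of probe sets, of which the one with the higher mean signal stood for the gene.

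Csf1 (macrophage colony stimulating factor) and interleukin 34 are unrelated proteins that both activate the receptor tyrosine kinase encoded by Csf1r, which macrophages need for survival and proliferation. Stromal cells such as fibroblasts are a known source of Csf1, and Csf1r marks cells of the macrophage lineage. Granulocyte-macrophage colony stimulating factor (GM-CSF, encoded by Csf2) binds an alpha chain (Csf2ra) that pairs with a beta chain shared with the receptors for interleukins 3 and 5 (Csf2rb). In the lung GM-CSF is known for the maturation of alveolar macrophages. Granulocyte colony stimulating factor (Csf3) acts through Csf3r, chiefly on neutrophils and their precursors.

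The cells were fibroblasts enriched from digested whole lungs of male wild-type C57BL/6 mice aged 8 weeks, and were passaged at most 3 times. Freshly isolated cells were split into wells that received vehicle or purmorphamine, a small molecule that activates the Hedgehog signal transducer Smoothened. The dose, written 5um in the labels, is read here as 5 µM, and RNA was taken after 24 h. Each of the 2 groups had 3 wells with 1 Affymetrix array each, and nothing in the labels says from how many mice or cell pools the wells came, so a p-value here speaks only of differences among wells, and these may be technical.

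Signals are log2 values, so a difference of 1 is a doubling. Over all 41345 probe sets, the median signal of an array lay between 6.34 and 6.39, the lower quartile between 5.03 and 5.08 and the upper quartile between 8.20 and 8.24. Differences are purmorphamine minus vehicle and were tested with limma over all genes with Benjamini-Hochberg adjustment. An adjusted p below 0.05 counted as passing the test, and such a gene as called. The cultures held more than fibroblasts. All 12 measured macrophage markers had vehicle means of 9.61 or more, among them Lyz2, which encodes lysozyme (13.96), and Cd68, which encodes a lysosomal glycoprotein (13.21), beside the fibroblast genes Fn1 for fibronectin (13.70) and Col1a1 for a collagen chain (12.77). The fibroblast proteoglycan gene Lum, named after its values were seen, was dim at 6.01. The source cell of a transcript cannot be assigned in such bulk RNA.

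With purmorphamine, Csf1r and Csf3 fell and Csf3r rose, while the other 6 members did not pass the test. Csf1r was 1.55-fold lower, Csf3 1.33-fold lower and Csf3r 1.35-fold higher. That is 1 rise and 2 falls among 9 members, where 14.3% of all genes tested were called (7.18% rose and 7.16% fell). The arrays of the groups did not overlap for 6 members, 5 lower and 1 higher with purmorphamine, against 34.2% of all genes (17.1% higher and 17.1% lower). The median difference was -0.11 over the 9 members and -0.01 over all genes.

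**Figure D1:**
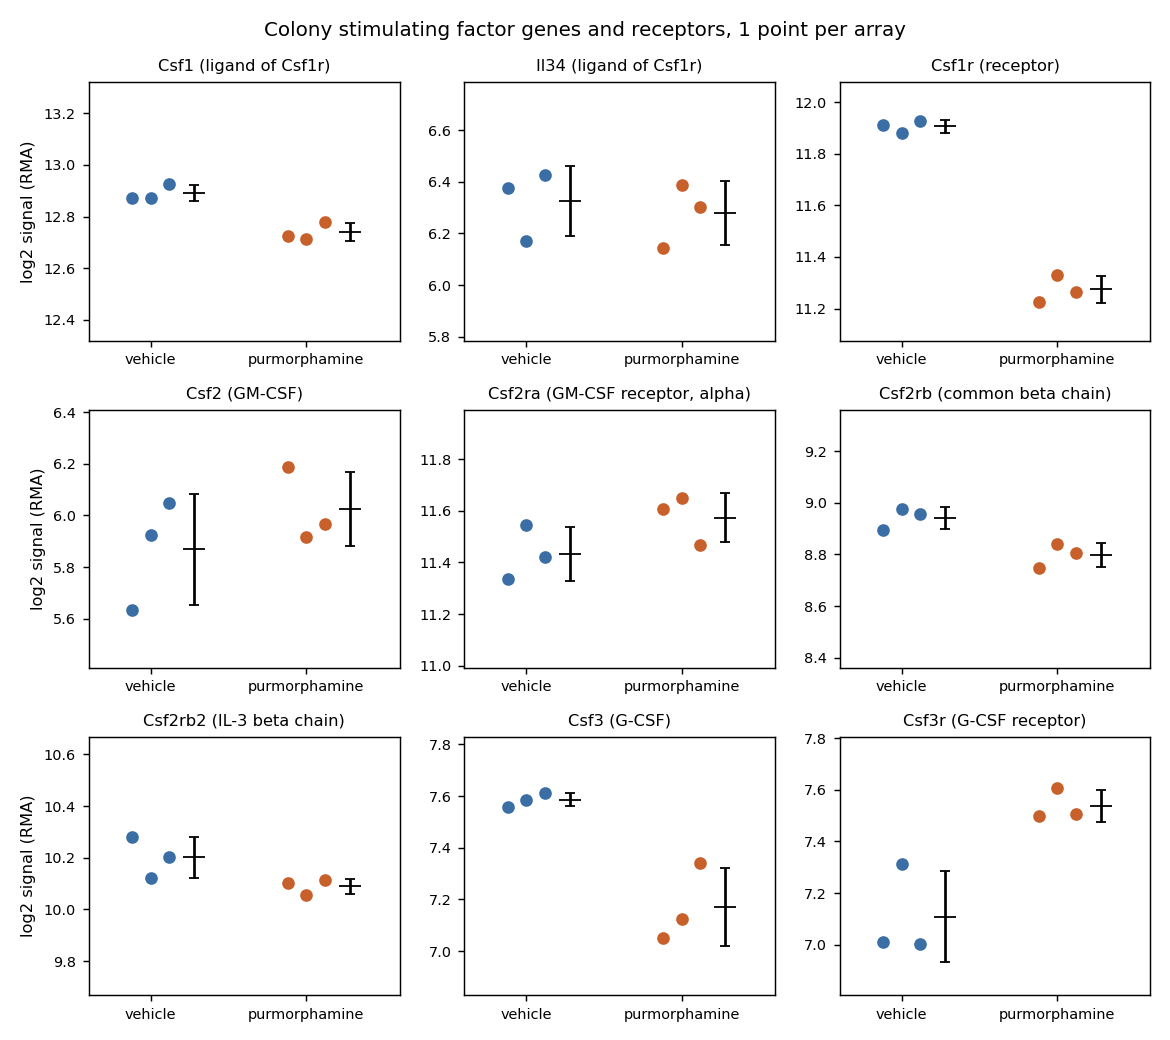
Log2 signal of each of the 9 members on the 3 vehicle arrays (blue) and the 3 purmorphamine arrays (orange), 1 point per array, with the group mean and SD as a black bar, and panels that all span 1 log2 unit. Csf1r stands between 11.88 and 11.93 with vehicle and between 11.23 and 11.33 with purmorphamine, whereas Il34, Csf2 and Csf2ra overlap between the groups.

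Of the ligands of Csf1r, Csf1 was among the brightest transcripts of these cultures, at a mean above 99.6% of genes. Its values were 12.87, 12.87 and 12.93 with vehicle and 12.73, 12.71 and 12.78 with purmorphamine. All 3 purmorphamine arrays lay below the vehicle arrays, by a small step that did not pass the test. The difference was -0.15 (95% interval -0.27 to -0.03, limma adjusted p = 0.10, n = 3 per group). The call depended on the setting: adjusted p was 0.024 with a linear offset of 50, 0.042 without the dimmest genes (a share of 0.333) and 0.0029 with a variance trend and robust fit.

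Il34, the alternative ligand, was dim, with a mean of 6.30 just under the array medians. The vehicle values of Il34 were 6.38, 6.17 and 6.43, and the purmorphamine values were 6.14, 6.39 and 6.30. The groups overlapped, and the difference of -0.05 (95% interval -0.26 to 0.17, limma adjusted p = 0.80) was smaller than the SD within either group (0.14 and 0.12). Arrays tend to compress differences of dim transcripts. Whether the ligands changed unequally was asked with the within-array difference of Csf1 and Il34. The change of Csf1 minus that of Il34 was -0.10 (exact two-sided permutation test, p = 0.40, where 0.10 is the smallest p that 3 against 3 arrays allow).

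Csf1r, the receptor of both ligands, had the largest difference among the 9 members. It read 11.91, 11.88 and 11.93 on the vehicle arrays and 11.23, 11.33 and 11.27 on the purmorphamine arrays. The gap between the groups was far wider than the spread within them, which had an SD of 0.02 and 0.05. Csf1r fell by 0.63 (SE 0.05, 95% interval -0.76 to -0.51, limma adjusted p = 0.000633, n = 3 per group). In size this difference stood above 98.1% of all genes. Bulk RNA cannot tell fewer Csf1r-expressing cells from less Csf1r RNA per cell.

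Macrophage markers are therefore given beside Csf1r. Of the 12 measured, 0 rose by limma and 4 fell, where 7.18% of all genes rose and 7.16% fell. The count of rises depended on the setting: it was 3 with a linear offset of 50, 3 with the robust fit with a variance trend, 2 without the dimmest genes and 1 at an adjusted p under 0.1. The groups did not overlap for 9 of the 12, against 34.2% of all genes (17.1% higher and 17.1% lower). All 3 purmorphamine arrays were above all vehicle arrays for the scavenger receptor gene Marco (0.20, adjusted p = 0.062) and the endotoxin co-receptor gene Cd14 (0.19, adjusted p = 0.10). The same held for Cd68 (0.13) and Lyz2 (0.05). Among the markers not past the test, Laptm5 alone was lower on all purmorphamine arrays (-0.11, limma adjusted p = 0.23). Itgam, an integrin chain of myeloid cells, fell by 1.46, the mannose receptor gene Mrc1 by 0.62, Adgre1, which encodes a macrophage surface antigen, by 0.37, and Spi1, which encodes the myeloid transcription factor PU.1, by 0.29. Of the 6 fits that omit an array, Spi1 passed in the 1 without vehicle replicate 2 (adjusted p from 0.0277 to 0.0662 over the 6 arrays). The markers not past the test included Ptprc, the pan-leukocyte phosphatase gene (0.07), the Fc receptor chain gene Fcer1g (-0.17) and Mertk, a receptor for the uptake of dead cells (-0.02). The summed signal of the 12 markers was 15.89 to 15.90 on the log2 scale with vehicle and 15.79 to 15.84 with purmorphamine, a sum to which the brightest markers add most. The part of cell numbers in the fall of Csf1r was not tested further.

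Over the 6 arrays, the genes with a profile most like that of Csf1r, by the root mean square difference after each was centred on its own mean, were H2ax (0.028), Txnip (0.031) and Slc16a6 (0.032) among 18758 genes searched. H2ax fell by 0.62, Txnip by 0.62 and Slc16a6 by 0.68. H2ax encodes a histone variant of the DNA damage response, and Txnip a thioredoxin-binding protein.

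**Figure D2:**
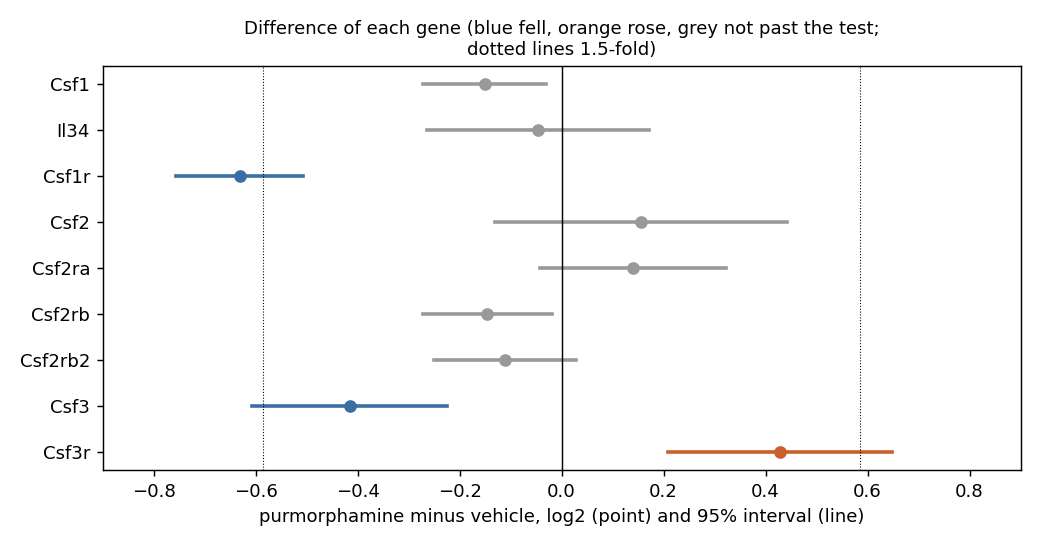
Difference in log2 signal (purmorphamine minus vehicle) of each member with its 95% interval from limma, with dotted lines at 1.5-fold (0.58 on the log2 scale) and colour by call. The interval of Csf1r runs from -0.76 to -0.51, those of Csf3 and Csf3r lie on opposite sides of 0, and that of Il34 spans 0.

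In the GM-CSF system no member passed the test. The ligand gene Csf2 was dim on both of its probe sets. The brighter probe set read 5.63, 5.93 and 6.05 with vehicle and 6.19, 5.92 and 5.97 with purmorphamine. The groups overlapped, and the difference was 0.16 (95% interval -0.13 to 0.44, limma adjusted p = 0.47). The other probe set of Csf2 read 4.94, 5.00 and 4.94 against 4.92, 5.10 and 4.88, around the lower quartile of the arrays, and differed by 0.01 (adjusted p = 0.95 with every probe set tested).

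Csf2ra, the alpha chain that binds GM-CSF, was bright, at a mean above 97.6% of genes. It read 11.34, 11.55 and 11.42 with vehicle and 11.61, 11.65 and 11.47 with purmorphamine. Purmorphamine replicate 3 lay below vehicle replicate 2, so the groups overlapped. The difference of Csf2ra was 0.14 (95% interval -0.04 to 0.32, limma adjusted p = 0.30), and its upper limit lies under a 1.5-fold rise.

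The beta chain genes Csf2rb and Csf2rb2 lie next to each other with 0 other protein-coding genes between them in the RefSeq gene table. They are near-identical copies in the mouse, the first for the shared chain and the second for a chain specific to interleukin 3, so probes may bind transcripts of both and their separate signals are uncertain. Csf2rb read 8.89, 8.98 and 8.96 with vehicle and 8.75, 8.84 and 8.81 with purmorphamine. Csf2rb2 read 10.28, 10.12 and 10.20 with vehicle and 10.10, 10.06 and 10.11 with purmorphamine. In both genes every purmorphamine array lay below every vehicle array, although neither passed the test. Csf2rb differed by -0.15 (95% interval -0.27 to -0.02, limma adjusted p = 0.13) and Csf2rb2 by -0.11 (-0.25 to 0.03, adjusted p = 0.28).

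The estimates for the alpha and beta chains of the GM-CSF receptor had opposite signs, but neither chain passed the test. The within-array difference of Csf2ra and Csf2rb was 2.44, 2.57 and 2.46 with vehicle and 2.86, 2.81 and 2.66 with purmorphamine. Every purmorphamine array was above every vehicle array. The change of Csf2ra exceeded that of Csf2rb by 0.29 (exact two-sided permutation test, p = 0.10). This is the smallest p that this permutation test can give for 3 against 3 arrays, so the test could not reach 0.05.

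In the G-CSF system the ligand and the receptor changed in opposite directions. Csf3 had a middling signal and read 7.56, 7.59 and 7.61 with vehicle against 7.05, 7.12 and 7.34 with purmorphamine. The vehicle arrays were close together and all above the purmorphamine arrays, among which replicate 3 was highest. Csf3 fell by 0.42 (SE 0.08, 95% interval -0.61 to -0.22, limma adjusted p = 0.0163, n = 3 per group). With 1 array left out, Csf3 missed the test without vehicle replicate 2 (adjusted p = 0.0536), vehicle replicate 3 (0.0559), purmorphamine replicate 1 (0.0511) or purmorphamine replicate 2 (0.057).

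Csf3r read 7.01, 7.31 and 7.00 with vehicle and 7.50, 7.61 and 7.50 with purmorphamine. Vehicle replicate 2 stood nearest to the purmorphamine arrays, and the groups did not overlap. Csf3r rose by 0.43 (SE 0.09, 95% interval 0.21 to 0.65, limma adjusted p = 0.0243, n = 3 per group). Among the fits that omit an array it passed in the 1 without vehicle replicate 2 (adjusted p = 0.00773), and adjusted p was 0.0639 without purmorphamine replicate 1, 0.0647 without purmorphamine replicate 3, 0.0771 without vehicle replicate 3, 0.0772 without vehicle replicate 1 and 0.0783 without purmorphamine replicate 2.

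Since Csf3r is typical of neutrophils, their markers are given beside it. Over all genes 7.18% rose and 7.16% fell. Of 10 neutrophil markers 0 rose and 1 fell, which was the collagenase gene Mmp8 (0.43), also the brightest of them at a vehicle mean of 11.49. The vehicle means of 7 of the 10 were below every array median, among them the granule and surface genes Ly6g (4.49), Elane (6.04), Mpo (6.11) and S100a9 (5.58), which differed by -0.27, -0.06, 0.05 and 0.03. S100a8, which encodes a calcium-binding protein, was above the medians at 6.90 and differed by -0.38, with all purmorphamine arrays lower (adjusted p = 0.061). The chemokine receptor gene Cxcr2 differed by 0.37, with all purmorphamine arrays higher (limma adjusted p = 0.057). Among the alternatives Cxcr2 passed in 6 of 15. The count of falls was 2 with a linear offset of 50, without the dimmest genes, with the robust fit with a variance trend, at an adjusted p under 0.1 and without purmorphamine replicate 3. The summed signal of the list was 11.80 to 11.85 with vehicle and 11.49 to 11.59 with purmorphamine, and Mmp8 alone makes up most of it. The part of neutrophils in the rise of Csf3r was not tested.

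**Figure D3:**
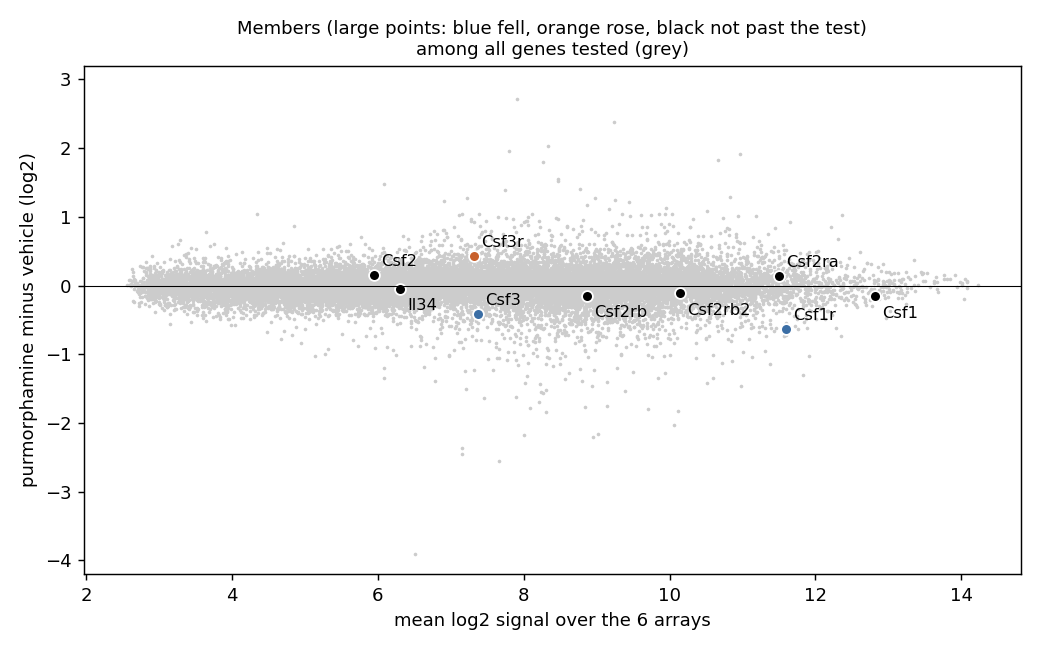
Difference in log2 signal (purmorphamine minus vehicle, y axis) against mean log2 signal over the 6 arrays (x axis) for 22180 genes in grey, with the 9 members as large points. Csf1r lies among bright genes at -0.63, while Csf1, at a mean of 12.81, lies closer to the zero line.

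Promoter windows are shown for the bright ligand gene (Csf1), the receptor gene that rose (Csf3r) and the bright receptor gene that did not pass the test (Csf2ra), to set the sequence beside these 3 outcomes. Sequences are the 250 bases before an annotated RefSeq start on GRCm38.p6, 5′ to 3′ on the strand of the gene. They were found for 5 of the 9 members, but not for Csf1r and Csf3, the members that fell. Capitals mark matches on either strand to GAGGAA, a core letter string of ETS factors such as PU.1, or to a string of the kappa B type, GGGA and CC with any 4 bases between.
Csf1 (GRCm38.p6, chr3:107760470-107760719, minus strand): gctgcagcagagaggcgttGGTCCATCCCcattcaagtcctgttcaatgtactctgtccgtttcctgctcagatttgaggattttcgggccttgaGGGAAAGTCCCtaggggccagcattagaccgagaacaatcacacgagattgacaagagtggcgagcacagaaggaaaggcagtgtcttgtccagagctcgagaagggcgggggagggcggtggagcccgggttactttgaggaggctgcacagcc
Csf3r (GRCm38.p6, chr4:126024409-126024658, plus strand): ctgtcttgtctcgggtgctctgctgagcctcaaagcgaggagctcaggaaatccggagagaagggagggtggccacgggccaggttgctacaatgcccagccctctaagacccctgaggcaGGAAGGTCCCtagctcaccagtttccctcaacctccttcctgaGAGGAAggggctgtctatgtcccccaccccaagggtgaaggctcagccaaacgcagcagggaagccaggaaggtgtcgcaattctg
Csf2ra (GRCm38.p6, chr19:61228419-61228668, minus strand): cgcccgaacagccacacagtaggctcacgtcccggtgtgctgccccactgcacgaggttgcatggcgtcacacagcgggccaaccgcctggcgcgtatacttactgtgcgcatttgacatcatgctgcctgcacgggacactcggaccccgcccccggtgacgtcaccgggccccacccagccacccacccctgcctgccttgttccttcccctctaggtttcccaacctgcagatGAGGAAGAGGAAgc

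The Csf1 window holds 3 matches to the kappa B string, 2 of which overlap, and 0 to GAGGAA. The Csf3r window holds 1 match to each, the GAGGAA starting 86 bases before the start, and the Csf2ra window holds 2 adjoining GAGGAA matches within its last 14 bases. Csf2rb2 has 1 GAGGAA and Csf2 has neither string. Among 32817 windows of the same length, 23.3% hold GAGGAA and 17.6% the kappa B string. The AP-1 string TGANTCA, in 6.75% of windows, was in 0 of the 5. These are matches of letters and not shown to be bound sites.

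The genes that pass on or restrain the signal from Csf1r moved unevenly. Of 15 measured, 4 fell and 2 rose, with a median of -0.02, where 7.16% of all genes fell and 7.18% rose. The list mixes both kinds, so its counts give no direction of signalling. Inpp5d, the lipid phosphatase SHIP1 that opposes PI3 kinase, fell by 0.77, the PI3 kinase subunit gene Pik3cd by 0.43, the phosphatase gene Ptpn6 (SHP-1) by 0.40 and the phospholipase gene Plcg2 by 0.38, with limma adjusted p from 2.40e-04 to 0.00712. These 4 calls held with each of the 6 arrays left out. Gab2 and Syk, an adaptor and a kinase chosen after their values were seen, rose by 0.21 and 0.24. Neither passed with any 1 array left out (adjusted p from 0.0628 to 0.125) or with arrays centred on their median (0.059 and 0.063). The adaptor gene Tyrobp (DAP12) differed by -0.02.

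Downstream of the beta chain and of Csf3r, 2 of 13 genes rose and 1 fell, with a median of -0.02. These counts are close to the shares over all genes, of which 7.18% rose and 7.16% fell. The survival kinase gene Pim1 rose by 0.44 and the kinase gene Jak2 by 0.24, and the survival gene Bcl2l1 fell by 0.20. Of the fits that omit an array, Jak2 passed in the 1 without purmorphamine replicate 2 (adjusted p from 0.0441 to 0.0903 over the 6), and Bcl2l1 in 0 of 6 cases (0.0824 to 0.129). The falls in this list numbered 2 or 3 with a linear offset of 50, without the dimmest genes, under the robust fit or at an adjusted p under 0.1. The STAT5 target Cish, which feeds back on these receptors, differed by -0.02, the STAT genes Stat5a and Stat5b by 0.02 and 0.05, and Socs3, the feedback inhibitor of Csf3r, by -0.13, and these 4 did not pass the test.

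Among 10 related ligands and receptors, 2 rose and 0 fell, with a median of 0.01, where 7.18% of all genes rose and 7.16% fell. The rises were those of Kit (0.35) and Pdgfrb (0.38), receptor tyrosine kinases of the same class as Csf1r. Il3 and Il5, which encode the other ligands that use a beta chain, were dim and differed by -0.03 and 0.07.

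Genes known to respond to CSF1 in macrophages were mostly lower. Of 13 measured, 10 fell and 1 rose, with a median of -0.55, where 7.16% of all genes fell and 7.18% rose. The list was chosen with earlier results of these data known, so its counts are not an independent test. Fcgr1, an Fc receptor gene, fell by 1.79, the transcription factor gene Maf by 1.41, Mrc1 by 0.62 and the urokinase gene Plau by 0.58, with limma adjusted p from 5.68e-05 to 7.20e-04. Further falls, named after their values were seen, were those of Gas6 (0.58), the cyclin gene Ccnd1 (0.56), Cx3cr1 (0.55), the scavenger receptor gene Cd163 (0.37), Myc (0.29) and Trem2 (0.23), and the rise was that of Gpnmb (0.19). Apoe (0.13) and Ccnd2 (0.06) did not pass. With 1 array left out, 7 to 9 of the genes fell and 0 rose: neither Trem2 nor Gpnmb was called in any of these 6 fits (adjusted p from 0.0658 to 0.119), Cd163 was not called in 4 (highest 0.109) and Myc not in 3 (highest 0.0591). Ccnd1 and Plau are also expressed by fibroblasts, and Mrc1 is in the macrophage marker list too.

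GM-CSF response genes of macrophages were more often higher. Of 13 measured, 6 rose and 1 fell, with a median of 0.20, where 7.18% of all genes rose and 7.16% fell. This list too was chosen with earlier results of these data known. Fabp4, a fatty acid binding protein gene, rose by 1.22, the macrophage elastase gene Mmp12 by 1.03, the lipid receptor gene Cd36 by 0.50 and, named after their values were seen, the sterol transporter gene Abcg1 by 0.53, the integrin gene Itgax by 0.31 and Cd9 by 0.28. Siglecf, a surface lectin of alveolar macrophages, fell by 0.78. The falls numbered 2 with a linear offset of 50, without the dimmest genes, under the robust fit and at an adjusted p under 0.1. Pparg, which encodes the transcription factor that GM-CSF induces in alveolar macrophages, differed by 0.15, Marco by 0.20, Car4 by -0.38 and the chitinase-like gene Chil3 by -0.02, and these did not pass. Cd9 was not called in 4 of the 6 fits that omit an array (highest adjusted p 0.0643), nor when its probe sets were averaged (0.148). The source cell of these transcripts cannot be assigned in the mixed cultures, so the rises need not come from macrophages. The difference between the CSF1 and GM-CSF lists was not tested.

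Inducers of colony stimulating factors in stroma, listed together with receptors and signalling genes, also split. Of 11 measured, 3 rose and 1 fell, with a median of -0.01, where 7.18% of all genes rose and 7.16% fell. The interleukin 1 genes Il1a and Il1b rose by 1.29 and 0.44 and their receptor gene Il1r1 by 0.40, while Il17ra, the receptor for interleukin 17, fell by 0.60. Under the linear offset of 50, without the dimmest genes, under the robust fit with a variance trend and at an adjusted p under 0.1, 5 of these genes rose and 3 to 4 fell. Il1b missed the test without purmorphamine replicate 1 or 2 (highest adjusted p 0.0655). Tnf differed by 0.17 and Il6 by -0.22 without passing. In the same wells Csf3 fell, and Csf1 differed by -0.15 without passing the main test. A link between these genes and the inducers was not tested.

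**Figure D4:**
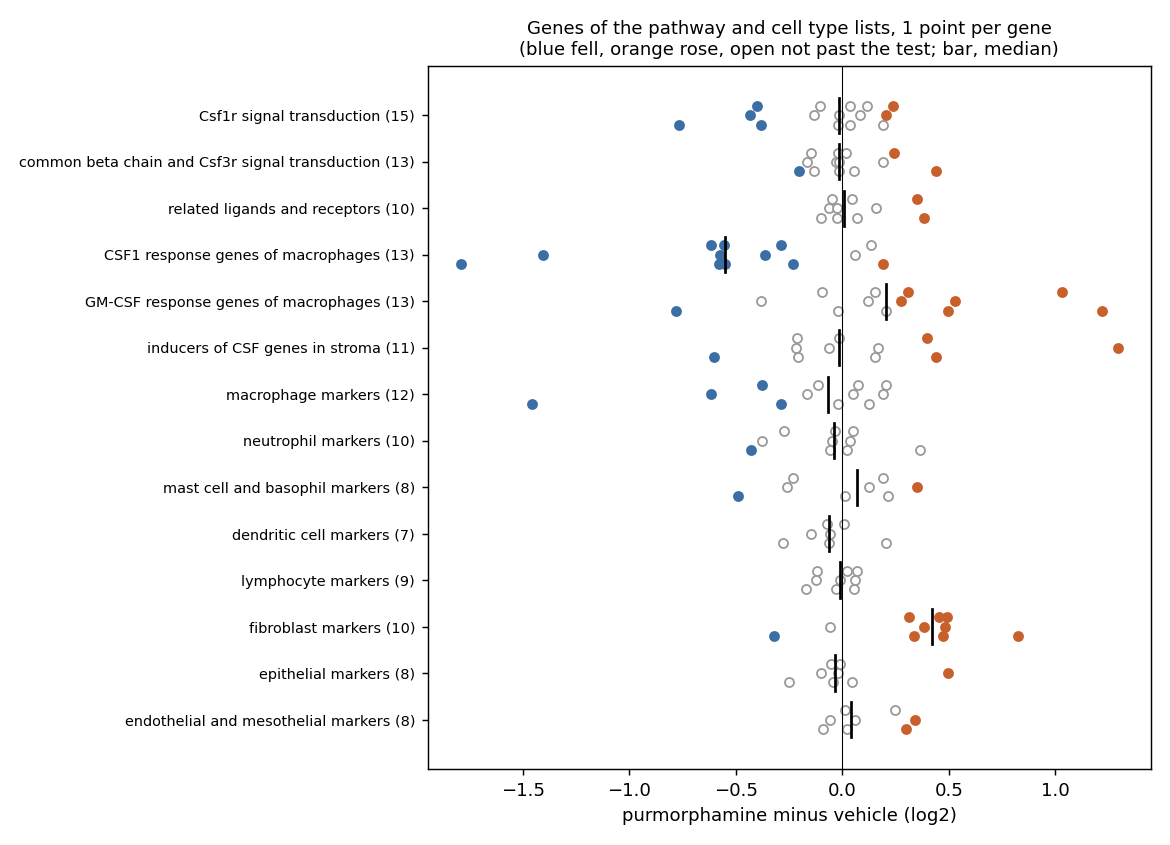
Differences in log2 signal (purmorphamine minus vehicle) of the genes in 6 pathway lists and 8 cell type lists, 1 point per gene, with the median of a list as a bar and the number of measured genes in brackets. The CSF1 response genes have a median of -0.55, the GM-CSF response genes 0.20 and the fibroblast markers 0.42, while other lists have medians between -0.07 and 0.07. The lists were chosen with earlier results of these data known.

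Fibroblast markers were mostly higher: 8 of 10 rose and 1 fell (Thy1, a surface glycoprotein gene named after its values were seen, by 0.32), with a median of 0.42. In the fits that omit an array, 6 to 7 rose, and Lum (0.49) was called in 0 of the 6 (adjusted p from 0.0501 to 0.0953). The growth factor receptor gene Pdgfra rose by 0.83, the collagen gene Col1a2 by 0.48, the proteoglycan gene Dcn by 0.46 and Pdgfrb by 0.38, whereas Fn1 differed by -0.06. Col1a1 rose by 0.31 but was not called in 4 of the 6 fits that omit an array (highest adjusted p 0.0604). The summed signal of the 10 fibroblast markers was 14.84 to 14.89 with vehicle and 15.06 to 15.13 with purmorphamine. The part of cell composition in the values of Csf1 and Csf3 was not tested. Among the other cell types, 1 of 8 mast cell and basophil markers rose (Kit) and 1 fell (Mcpt8, 0.49), 0 of 7 dendritic and 0 of 9 lymphocyte markers were called by limma (0 also under each alternative, and 1 in each list at an unadjusted p under 0.05), 1 of 8 epithelial markers rose (Epcam, 0.50), and 2 of 8 endothelial and mesothelial markers rose (Cdh5, 0.34, and Pecam1, 0.30). Cdh5 missed the test without purmorphamine replicate 2 or 3 (highest adjusted p 0.0525). Vehicle means lay below every array median for 6 of 8 mast cell and basophil, 3 of 7 dendritic and 8 of 9 lymphocyte markers. The same held for 2 epithelial markers and 1 endothelial or mesothelial marker. Such dim markers limit what these lists can show. Over all genes 7.18% rose and 7.16% fell.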

How the data were processed

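RNA of 6 wells was hybridised to Affymetrix arrays after amplification of 100 ng of total RNA, per the labels' protocols. The authors deposited a log2 signal for every probe set on every array. The software listed, per the submitters' processing notes, is oligo, RMA and limma; versions and genome build are not given in those notes. RMA equalises the distributions of the arrays, which hides any shift shared by every gene.

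Of 41345 probe sets, 23521 had 1 gene symbol in the platform annotation and were named, 1814 had several and 16010 none. The probe set with the highest mean stood for a gene, which left 22180 genes. Identifiers of 23328 probe sets matched the RefSeq table of GRCm38.p6, which updated 0 symbols. The difference was fitted on all 6 arrays by limma 3.58.1 (lmFit, eBayes; R 4.3.3), without a block, two-sided, and called at an adjusted p under 0.05. The steps were tested on simulated data. The members, gene lists and motif strings were chosen with earlier results of these data known. Named list genes are at most the 4 called with the smallest p, the 2 brightest markers of a cell type, and others said to be chosen later or named as members not past the test. Precision is limited by the number of arrays, with a median SE of 0.07 over all genes. Alternatives changed the scaling, offset, filter, probe set rule, variance model, threshold and block, and omitted each array in turn. Python 3.11.15 and matplotlib 3.10.9 drew the plots.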

Additional observations from a re-analysis of the deposited data

How the results depend on the processing

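Csf1r fell under all 15 alternative fits, by 0.61 to 0.66 (limma adjusted p from 6.50e-08 to 0.00763). Csf3 kept its direction in the same 15, with -0.50 to -0.35 when 1 array was left out, and so did Csf3r, with 0.38 to 0.53. Il34 ran from -0.12 to 0.0216 with 1 array left out and so changed sign. Markers that were not called also changed sign: with 1 array left out Ccr7 ran from -0.234 to 0.0115, Cd4 from -0.026 to 0.1313, Cd3e from -0.034 to 0.1103 and Krt18 from -0.0422 to 0.0001, and Cdh1 was 0.0002 with probe sets averaged. Csf1 passed the test at -0.15 with a linear offset of 50, without the dimmest genes (a share of 0.333) and under a robust fit with a variance trend. These settings raised the number of lowered members from 2 to 3. Over the 6 fits on 5 arrays, 0 to 1 members rose and 1 to 2 fell, and 897 to 1168 genes rose and 1057 to 1206 fell over all genes, against 1593 and 1588. The lowest count of raised genes, 897, came without purmorphamine replicate 1. The counts of raised genes without vehicle replicates 2 and 3 were 957 and 1025, and 1008 genes rose and 1057 fell without purmorphamine replicate 3. At a fold of at least 1.5, 0 members rose and 1 fell, and 214 genes rose and 311 fell. The robust fit with a variance trend raised 2416 genes. Csf2 was among the dimmest genes and had no value without them. The change of Csf1 minus that of Il34 was -0.17 to -0.04 and that of Csf2ra minus Csf2rb 0.24 to 0.34 with 1 array left out, and these fits kept their direction in the other alternatives. In the labels, same-numbered arrays share only a number. Their deviations from the group means correlated at 0.106, 0.024 and 0.103 across genes, against -0.095 to -0.008 for differently numbered arrays. Every array thus correlated best with its own number. Whether same-numbered wells shared a preparation cannot be told from the labels. With the replicate number as a block, Csf1r differed by -0.63 (adjusted p = 0.00763), Csf3 by -0.42 (0.027) and Csf3r by 0.43 (0.0229), and 1193 genes rose and 1239 fell. The exact tests of unequal change were not run with the block. The alternatives with an adjusted p under 0.1, quantile normalization, median centring, array weights, the mean of probe sets and every probe set tested left the counts of raised and lowered members at 1 and 2. Il34 and Csf2 were dim, which limits what their values can show.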
